A study of Mus musculus with 2 samples.

Results

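Lyz2, Lyz1, Chil3, Ear2, Anxa1 and Plac8 are myeloid genes whose products are mostly secreted or released by macrophages, monocytes and granulocytes. These 6 genes were selected by symbol from the 49315 genes of the count table, and the choice drew on their shares of total counts in the same libraries that are described here. Every comparison between the libraries is therefore a description, and none carries a test. The RNA came from macrophages, per the labels, in the dorsal root ganglia of mice, where the cell bodies of sensory neurons lie. The hypoxia mice had chronic intermittent hypoxia, a model of sleep apnoea, in which chamber oxygen fell from 21% to 8% in cycles of 6 min (10 cycles per hour) for 8 h a day over 14 days. The normoxia mice sat in the same kind of chamber at about 21% oxygen for the same time. Both groups were sampled about 18 h after the last exposure. The sources used here give no strain, sex, age, number of mice pooled or method of cell isolation. Each group had 1 library, so there is no spread between replicates, and intervals cover counting error only. The column code for hypoxia matched its sample by the initial letter alone, since the number in the code matches neither sample.

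Lysozymes cleave the cell wall of bacteria. Mice carry a macrophage gene, Lyz2, and an intestinal Paneth cell gene, Lyz1, and Lyz2 is a standard marker of the whole myeloid lineage, neutrophils included. Chil3 (Ym1) is a chitinase-like lectin without chitinase activity, known from alternatively activated macrophages and from neutrophils and their precursors. Ear2 is an eosinophil-associated ribonuclease, which is also known from monocytes and some tissue macrophages. Anxa1, annexin A1, binds phospholipids in the presence of calcium, and when released it damps inflammation through formyl peptide receptors. Plac8 is a small cysteine-rich intracellular protein that is abundant in monocytes and granulocytes.

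In all 2171348 counts were in the normoxia library, against 145056 in the hypoxia library. Far fewer genes were counted in hypoxia (2050) than in normoxia (4640), and 1158 were counted in both. Counted genes had a median of 230 counts in normoxia and 42 in hypoxia. Among genes with at least 10 counts in 1 library and 0 in the other, the median was 229 counts in normoxia and 39 in hypoxia. If such a gene mostly stems from 1 starting molecule, which was not tested, these medians estimate the reads per molecule, and the libraries hold about 9482 and 3719 molecules. Intervals are given by reads and, because they are far wider, also on these estimated molecules. To check the labelled cell type, 13 macrophage markers were examined. In normoxia 11 of them were counted, and their summed share was 0.500%. In hypoxia 1 of the 13, Cx3cr1, was counted, with 6 counts, and the markers took 0.00414%. Adgre1, Cd68, Csf1r and the C1q genes C1qa, C1qb and C1qc were at 0 there. By estimated molecules the upper limit on the ratio of shares, hypoxia over normoxia, was above 1 for each of these genes. It ran from 1.57 for Adgre1 to 7.63 for C1qb, so no single 0 shows a loss. The 8 erythroid markers, globin genes among them, took a larger share than the macrophage markers, 9.53% in normoxia and 7.87% in hypoxia.

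The tandem lysozyme genes gave opposite extremes. Lyz2 had 34028 counts in normoxia and 3164 in hypoxia, whereas Lyz1 had 1 count in normoxia and 0 in hypoxia. A count of 0 was taken as 3 counts, which is 20.7 CPM in the hypoxia library. Here CPM is the count rescaled to a common library total. By estimated molecules the limit is far looser, since 3 of them make up 807 CPM in hypoxia. A 0 in hypoxia therefore does not show a loss for a gene below that level in normoxia. Both genes lie on the minus strand of chromosome 10 in GENCODE M21 on GRCm38. Lyz2 (ENSMUSG00000069516) spans chr10:117277331-117282321 and Lyz1 (ENSMUSG00000069515) spans chr10:117287797-117292868. They are 5475 bases apart with 0 other annotated genes between them, and each has 4 exons. The coding sequences are 444 bases long in both and differ at 22 of them. To show what a read must cover to be told apart, the 60 coding bases within 1 exon with the most differences are printed here, from coding base 61 to 120 in exon 1. Capitals mark the 9 bases that differ between the copies. The Lyz2 stretch lies at chr10:117282123-117282182 and the Lyz1 stretch at chr10:117292719-117292778.
Lyz2: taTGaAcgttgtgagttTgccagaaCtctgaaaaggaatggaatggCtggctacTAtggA
Lyz1: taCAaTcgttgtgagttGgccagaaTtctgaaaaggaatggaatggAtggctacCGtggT
Of all 50-base windows of the Lyz2 transcript, 15.4% also occur in Lyz1, and of the 100-base windows 1.97% do. Most windows of either transcript are thus unique to it. Adding the counts of both genes left the ratio of Lyz2 at 1.39, as it had to with 1 count of Lyz1 in all.

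The promoters of the pair are less alike than their coding sequences. Over the 200 bases from base 250 to base 51 before the RefSeq start site, 198 bases could be aligned, of which 150 were identical (75.8%). The stretches are shown because neighbouring copies with these upstream sequences had counts so far apart. They come from RefSeq on GRCm38.p6, minus strand, at chr10:117282323-117282522 for Lyz2 and chr10:117292919-117293118 for Lyz1, with capitals at bases that differ or have no partner.
Lyz2: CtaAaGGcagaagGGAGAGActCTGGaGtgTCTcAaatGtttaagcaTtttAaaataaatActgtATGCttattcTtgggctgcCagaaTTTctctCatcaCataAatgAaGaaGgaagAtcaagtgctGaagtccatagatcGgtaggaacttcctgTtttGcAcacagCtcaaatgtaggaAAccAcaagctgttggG
Lyz1: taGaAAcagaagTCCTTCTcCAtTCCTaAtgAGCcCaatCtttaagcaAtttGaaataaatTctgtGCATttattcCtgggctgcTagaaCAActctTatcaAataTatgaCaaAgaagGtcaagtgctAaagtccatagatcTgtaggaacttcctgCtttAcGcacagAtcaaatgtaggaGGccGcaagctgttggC
The C/EBP factors are transcription factors of the granulocyte and monocyte lineage, and a loose form of their motif, TTNNGNAA on either strand, occurred within 250 bases before the start of each of the 6 genes. Of all 32851 RefSeq windows of that length, 36.8% hold it. It began 55 bases before the start in Lyz2, 209 bases in Lyz1, 90 bases in Ear2, 143 bases in Anxa1, and 53, 37 and 27 bases in Chil3. In Plac8 it began 133 bases before the first of the 2 listed starts and 12 bases before the second. The core of PU.1, the master factor of myeloid cells (GAGGAA, either strand), occurred in the windows of Anxa1 and Plac8 and in 23.3% of all windows. The TATA box letters TATAAA occurred in Anxa1 alone among the 6 genes, 32 bases before the start, and in 12.4% of all windows. The 3 motifs were searched separately, and a match describes letters only. All starts in this search are RefSeq starts, and some differ from those of GENCODE. The windows of Anxa1 and of the second Plac8 start lie wholly inside the GENCODE span of their gene. Those of Lyz2 and of the first Plac8 start reach partly into it.

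Lyz2 was among the genes with most counts in either library, ranking 3 in normoxia and 6 in hypoxia. It took 1.57% of normoxia counts (95% interval 1.55 to 1.58) and 2.18% of hypoxia counts (2.11 to 2.26). The ratio of shares in hypoxia over normoxia was 1.39, and its interval ran from 1.34 to 1.44 by reads and from 1.05 to 1.84 by estimated molecules. Lyz2 held about 149 such molecules in normoxia and 81.1 in hypoxia, far more than the other members. It made up 81.5% of the counts of the 6 genes in normoxia and 73.9% in hypoxia. With TMM scaling, described further on, the ratio of Lyz2 was below 1, at 0.797. Of the 1108 genes counted in both libraries with at least 50 counts, 626 (56.5%) had a higher ratio than Lyz2.

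**Figure D1:**
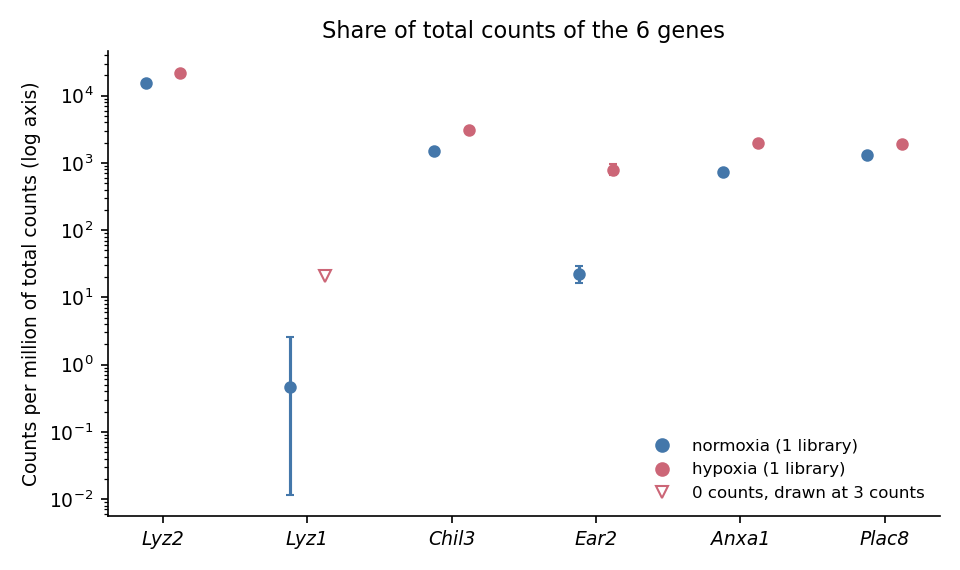
Share of total counts of each of the 6 genes in CPM on a log axis, with 1 point per library and bars for the exact 95% counting interval by reads. Lyz2 lies highest at 15671 and 21812, Lyz1 lies at or near 0, and the widest gap between the libraries is that of Ear2, from 22.1 to 793.

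Chil3 (ENSMUSG00000040809) lies on the minus strand of chromosome 3 (chr3:106147554-106167564) and has 11 exons. It had 3223 counts in normoxia and 443 in hypoxia, or 1484 CPM (1434 to 1536) and 3054 CPM (2777 to 3352). The hypoxia share was 2.06 times the normoxia share, and its interval ran from 1.86 to 2.27 by reads and from 0.855 to 4.84 by estimated molecules. On molecules the interval includes 1, with 14.1 molecules in normoxia and 11.4 in hypoxia. The closest relative, Chil4 (Ym2), is 95.4% identical over the coding sequence, and 29.4% of the 50-base windows of Chil3 also occur in Chil4 or the predicted gene Gm6522. Chil4 had 0 counts in normoxia and 1 in hypoxia. Of the 10 chitinase family genes the others with counts were Chil1 and Ovgp1, an oviduct glycoprotein gene. Chil1, a chitinase-like lectin of neutrophil granules and macrophages, had 236 counts in normoxia and 0 in hypoxia. Its 109 CPM in normoxia is below the 807 CPM of 3 estimated molecules in hypoxia. Ovgp1 had 0 and 33, the latter about 0.846 estimated molecules.

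Ear2 (ENSMUSG00000072596) lies on the plus strand of chromosome 14 (chr14:44102654-44103534), and its coding sequence is in the second of 2 exons. It had 48 counts in normoxia and 115 in hypoxia, so it had more reads in the library with fewer reads in all. These are 22.1 CPM (16.3 to 29.3) and 793 CPM (655 to 952). The ratio was 35.9, with an interval of 25.4 to 51.3 by reads. On estimated molecules Ear2 came to 0.210 in normoxia and 2.95 in hypoxia, and the interval ran from 0.885 with no upper limit. In normoxia 14.7% of counted genes had as few counts or fewer, and in hypoxia 90.3% did. Of the 1108 genes counted in both libraries, 22 (1.99%) had a higher ratio than Ear2, and these had between 1 and 35 counts in normoxia and between 40 and 143 in hypoxia. The genes with the highest ratios were thus ones with few reads in normoxia, as was Ear2.

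Ear2 belongs to a cluster of close copies, and its reads cannot all be assigned with certainty. Its coding sequence is 97.0% identical to that of Ear10, 95.7% to Ear1, 88.2% to Ear6 and 78.9% to Ear14. Of its 50-base windows 41.5% occur in other transcripts, led by Ear10 and Ear1, and of its 100-base windows 13.9%. The pair Ear2 and Ear10 differs at 14 of 468 coding bases. The 60 coding bases with the most differences (coding base 272 to 331, exon 2) hold 5 of them, marked in capitals, at chr14:44103158-44103217 on the plus strand for Ear2 and chr14:43923038-43923097 on the minus strand for Ear10.
Ear2: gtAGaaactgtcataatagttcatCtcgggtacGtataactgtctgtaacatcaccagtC
Ear10: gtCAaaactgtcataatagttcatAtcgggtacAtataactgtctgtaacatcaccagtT
Among the 5 Ear genes in the table Ear2 alone had counts, so adding them gave the same ratio of 35.9. The eosinophil markers Prg2, Prg3, Epx, Ccr3 and Il5ra had 0 counts in both libraries, and Siglecf, also listed, was not found by that symbol. In hypoxia 3 estimated molecules make up 807 CPM, and Ear2 itself was at 793 CPM. These 0 counts therefore do not show that eosinophils were absent.

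Anxa1 (ENSMUSG00000024659) lies on the minus strand of chromosome 19 (chr19:20373428-20390944) and has 13 exons. It had 1608 counts in normoxia and 283 in hypoxia, or 741 CPM (705 to 778) and 1951 CPM (1730 to 2192). The ratio was 2.63, and its interval ran from 2.31 to 2.99 by reads and from 0.802 to 8.71 by estimated molecules, of which it had 7.02 and 7.26. No 50-base window of its transcript occurs in another gene (0 of 1625). Among the annexins Anxa2, which binds the S100a10 protein at membranes, was close to it in ratio, with 693 and 134 counts, giving a ratio of 2.89 (2.39 to 3.49 by reads, 0.438 to 20.5 by molecules). Anxa5, the annexin used to stain dying cells, had 755 and 34 counts, giving a ratio of 0.674 (0.463 to 0.950 by reads, 0 to 8.47 by molecules). Anxa7 (415 counts in normoxia) and Anxa11 (209) had 0 in hypoxia, whereas Anxa3, a neutrophil annexin, had 0 in normoxia and 42 in hypoxia. In normoxia Anxa7 was at 191 CPM and Anxa11 at 96.3, below the 807 CPM of 3 estimated molecules in hypoxia. The 42 counts of Anxa3 are about 1.08 estimated molecules. Of the 12 annexin genes, 5 had at least 50 counts, with 2 at least 2-fold higher in hypoxia, 2 at least 2-fold lower and 1 neither. The backgrounds over all genes with at least 50 counts were 16.1% higher and 67.0% lower. The receptor side was seen in normoxia only. Fpr2, a receptor of annexin A1, was counted 470 times in normoxia and 0 times in hypoxia. The other 6 formyl peptide receptor genes had 0 in both. At 216 CPM in normoxia Fpr2 is below the 807 CPM that 3 estimated molecules make up in hypoxia, so a loss was not detectable at this depth.

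Plac8 (ENSMUSG00000029322) lies on the minus strand of chromosome 5 (chr5:100553725-100572245), and 3 of the 5 exons of its longest coding transcript carry coding sequence. It had 2824 counts in normoxia and 275 in hypoxia, or 1301 CPM (1253 to 1349) and 1896 CPM (1679 to 2133). The ratio was 1.46, and its interval ran from 1.28 to 1.65 by reads and from 0.490 to 3.98 by estimated molecules. With TMM the ratio was 0.835. No 50-base window of its transcript occurs in another gene (0 of 1175). Its relatives Plac8l1 and Cnfn had 0 counts in both libraries.

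Levels of different genes were compared on the deposited TPM, which divide by gene length and sum to a fixed total per library. In normoxia the order was Lyz2 at 22647 TPM, Chil3 at 1664, Plac8 at 1495, Anxa1 at 519, Ear2 at 56.2 and Lyz1 at 0.667. In hypoxia it was Lyz2 at 24193 TPM, Chil3 at 2628, Plac8 at 1672, Ear2 at 1548 and Anxa1 at 1050, with Lyz1 at 0. The change of order was that Ear2 stood below Anxa1 in normoxia and above it in hypoxia. Plac8 and Ear2 did not differ beyond counting error in hypoxia (1480 to 1882 and 1278 to 1858 TPM by reads). On estimated molecules the intervals of Chil3, Plac8, Ear2 and Anxa1 all overlapped in normoxia, and they all overlapped in hypoxia too. In normoxia that of Chil3 was 912 to 2787 TPM and that of Plac8 781 to 2590. Anxa1 had 209 to 1069 TPM there, and Ear2 reached up to 1104. The order of Ear2 and Anxa1 was thus told apart by reads only. Lyz2 stood above the other members in both libraries on either kind of interval.

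A ratio to Lyz2 inside each library needs no scaling between libraries. Per 1000 TPM of Lyz2, Chil3 had 73.5 TPM in normoxia and 109 in hypoxia. The ratio of these values was 1.48 (exact conditional interval 1.33 to 1.64 by reads, 0.565 to 3.60 by molecules). Anxa1 had 22.9 and 43.4 TPM per 1000 TPM of Lyz2, a ratio of 1.89 (1.65 to 2.16 by reads, 0.529 to 6.37 by molecules). Plac8 had 66.0 and 69.1, a ratio of 1.05, and its interval of 0.917 to 1.19 by reads includes 1. Ear2 had 2.48 and 64.0, a ratio of 25.8 (18.2 to 36.9 by reads, from 0.741 by molecules). Relative to Lyz2, then, Plac8 was within counting error by reads, Chil3, Anxa1 and Ear2 were higher in hypoxia by reads, and none of the 4 was apart from Lyz2 by estimated molecules.

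Together the 6 genes had 41732 counts in normoxia and 4280 in hypoxia, or 1.92% (1.90 to 1.94) and 2.95% (2.86 to 3.04) of counts. The ratio of these shares was 1.54 (0.880 with TMM), and its interval ran from 1.49 to 1.58 by reads and from 1.20 to 1.96 by molecules. Without Lyz2 it was 2.17 (2.03 to 2.31 by reads, 1.27 to 3.68 by molecules). Of the 6 genes 5 had at least 50 counts over both libraries, and Lyz1 did not. Ear2, with 48 counts in normoxia, met that minimum only with its hypoxia reads added. Chil3, Anxa1 and Ear2, 3 of these 5, were at least 2-fold higher in hypoxia, against a background of 16.1% of all 4215 genes with at least 50 counts. None was at least 2-fold lower (0 of 5), against a background of 67.0%, since 2883 of the 4215 genes had 0 counts in hypoxia. All 5 were counted in both libraries, and among the 1108 genes so counted 41.1% were at least 2-fold higher and 15.7% at least 2-fold lower. The median log2 ratio was 1.04 over the 5 genes, −1.95 over all 4215 and 0.69 over the 1108. The 6 genes were chosen with this contrast in view, so nothing is read from these counts.

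**Figure D2:**
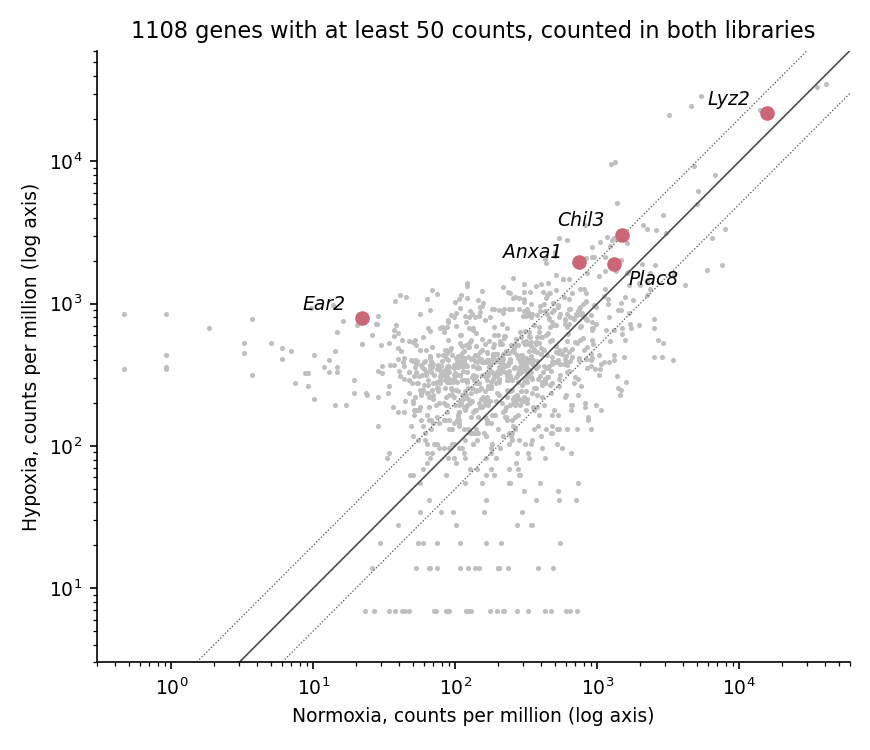
CPM in normoxia (x) and hypoxia (y), both on log axes, for the 1108 genes with at least 50 counts that were counted in both libraries (grey) and 5 of the members (red). The solid line is equality and the dotted lines are 2-fold. Lyz2 and Plac8 lie between the dotted lines, Chil3 just above the upper one, Anxa1 above it, and Ear2 far above it at the left edge of the cloud.

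The direction for Lyz2 and Plac8 depended on how the libraries were scaled. The TMM scaling (trimmed mean of M values) moved every log2 ratio by −0.80, and the ratio of Lyz2 became 0.797 (0.769 to 0.827 by reads) and that of Plac8 0.835 (0.735 to 0.946 by reads). Intervals by estimated molecules were not computed under TMM, so whether these ratios lie below 1 on molecules was not tested. With TMM the ratio was 1.18 for Chil3, 1.51 for Anxa1 and 20.5 for Ear2, so Ear2 alone stayed at least 2-fold higher, against 11.9% of all genes. Scaling to the 15 housekeeping genes gave 1.51 for Lyz2 and 1.58 for Plac8, and 3 of the 5 genes were again at least 2-fold higher, against 17.0% of all genes. With the median of ratios Ear2 alone was at least 2-fold higher (background 12.1%), and with the deposited TPM it was Ear2 and Anxa1 (background 14.1%). Under the 6 scalings Chil3, Anxa1 and Ear2 had a ratio above 1, and 0 of the 5 genes were at least 2-fold lower. The background for lower genes was 75.6% with TMM, 75.1% with the median of ratios, 71.2% with TPM, 65.7% with the housekeeping genes and 67.2% with globins left out of the totals (16.1% for higher genes).

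**Figure D3:**
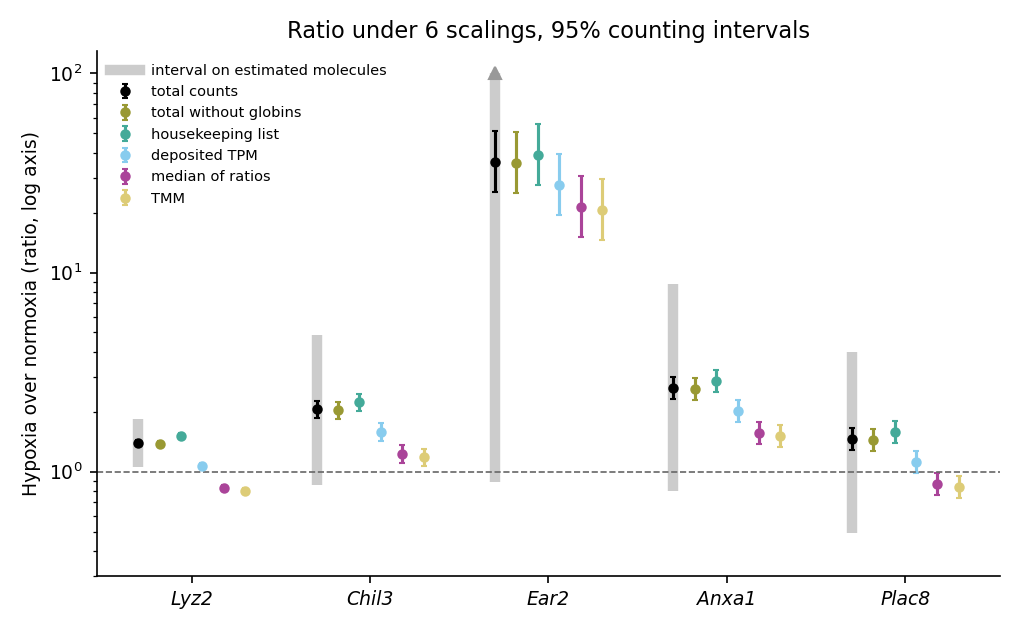
Ratio of hypoxia over normoxia (log axis) for the 5 genes with at least 50 counts, under 6 scalings, with bars for the 95% counting interval by reads and grey bars for that by estimated molecules under total counts. Lyz2 and Plac8 cross the dashed line of equality with TMM and with the median of ratios, and Ear2 has no upper limit by molecules (arrowhead).

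The secreted antimicrobial genes counted in both libraries had a larger share in hypoxia, by more than most of the members. Of 28 secreted antimicrobial and granule genes, 16 had at least 50 counts, of which 11 were at least 2-fold higher in hypoxia and 5 at least 2-fold lower, each of these with 0 counts there. Over all genes with at least 50 counts the shares were 16.1% higher and 67.0% lower, and over those counted in both libraries, as the 11 were, 41.1% were higher. Lcn2, a siderophore-binding protein of neutrophil granules, had 2719 counts in normoxia and 1393 in hypoxia, giving a ratio of 7.67 (7.18 to 8.18 by reads, 3.89 to 16.3 by molecules). S100a9, a calprotectin subunit, had 11656 and 4197 counts, giving a ratio of 5.39. Wfdc21, a small secreted antimicrobial-type protein, had 90 and 67 counts, the highest ratio among the list's genes counted in both libraries at 11.1 (8.00 to 15.5 by reads, from 0.253 with no upper limit by molecules). The granule protease genes Elane and Prtn3 had 0 counts in normoxia and 29 and 4 in hypoxia, about 0.744 and 0.103 estimated molecules. Mmp9, a secreted gelatinase, had 522 and 0 counts. Its 240 CPM in normoxia is below the 807 CPM of 3 estimated molecules in hypoxia. The ratios of Lyz2, Chil3, Anxa1 and Plac8 were below that of every gene on this list that was counted in both libraries, except that Anxa1 at 2.63 was level with the haptoglobin gene Hp at 2.60. Ear2 was above them all.

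Of 29 other secreted genes of macrophages and monocytes 21 had at least 50 counts, of which 1 was at least 2-fold higher in hypoxia, 15 were at least 2-fold lower and 5 were neither. Of the 15, 9 had 0 counts in hypoxia. The count of lower genes is near the background, since 67.0% of all genes with at least 50 counts were at least 2-fold lower and 16.1% at least 2-fold higher. The apolipoprotein gene Apoe had 12776 and 249 counts, giving a ratio of 0.292 (0.256 to 0.331 by reads, 0.107 to 0.662 by molecules). The chemokine gene Ccl9 had 339 and 146 counts, giving a ratio of 6.45 (5.27 to 7.85 by reads, 0.763 to 121 by molecules). The related Ccl6 had 1574 and 0 counts, with an upper limit on the ratio of 0.0351 by reads and 1.81 by molecules. The molecule intervals of both include 1, and at 725 CPM in normoxia Ccl6 is below the 807 CPM of 3 estimated molecules in hypoxia. Cst3, a secreted inhibitor of cathepsins, had 3252 counts in normoxia, close to the 3223 of Chil3, but 97 in hypoxia against the 443 of Chil3.

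Marker genes of the cell types that share these members were also compared between the libraries. The 14 neutrophil markers took 1.83% of counts in normoxia and 10.3% in hypoxia, giving a ratio of 5.63 (4.69 to 6.77 by molecules). Of these 14, 10 were counted in normoxia and 11 in hypoxia, with Ly6g at 0 and 110 counts and Csf3r at 0 and 40. The hypoxia counts of Ly6g and Csf3r are about 2.82 and 1.03 estimated molecules. With at least 50 counts, 8 were at least 2-fold higher in hypoxia and 3 at least 2-fold lower, namely Mmp8 (312 and 0), Mmp9 (522 and 0) and Mpo (506 and 0). In normoxia these 3 were at 144, 240 and 233 CPM, below the 807 CPM of 3 estimated molecules in hypoxia. Over all genes with at least 50 counts, 16.1% were at least 2-fold higher and 67.0% at least 2-fold lower. Among those counted in both libraries, as 7 of the 14 markers were, the shares were 41.1% and 15.7%. Ly6g, 1 of the 8 higher markers, met the minimum of 50 counts only through its hypoxia reads. The 10 monocyte markers took 0.381% and 0.225%, a ratio of 0.592 (0.243 to 1.28 by molecules), with Ccr2 at 2308 and 0 counts and Ly6c2 at 1486 and 40. Of 9 with at least 50 counts, 2 were at least 2-fold higher, Spn (0 and 56) and Ace (248 and 57), 5 were at least 2-fold lower and 2 were neither, among them F13a1 with a ratio of 1.81. Spn too met the minimum only through its hypoxia reads, which are about 1.44 estimated molecules. The count of lower monocyte markers is not above the background of 67.0%, so nothing is read from it. Summed macrophage markers had a ratio of 0.00827, with an upper limit of 0.224 by molecules. The part of these marker differences in the ratios of Lyz2, Chil3, Ear2, Anxa1 and Plac8 was not tested. In bulk libraries fewer cells of a type and less RNA per cell cannot be told apart.

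**Figure D4:**
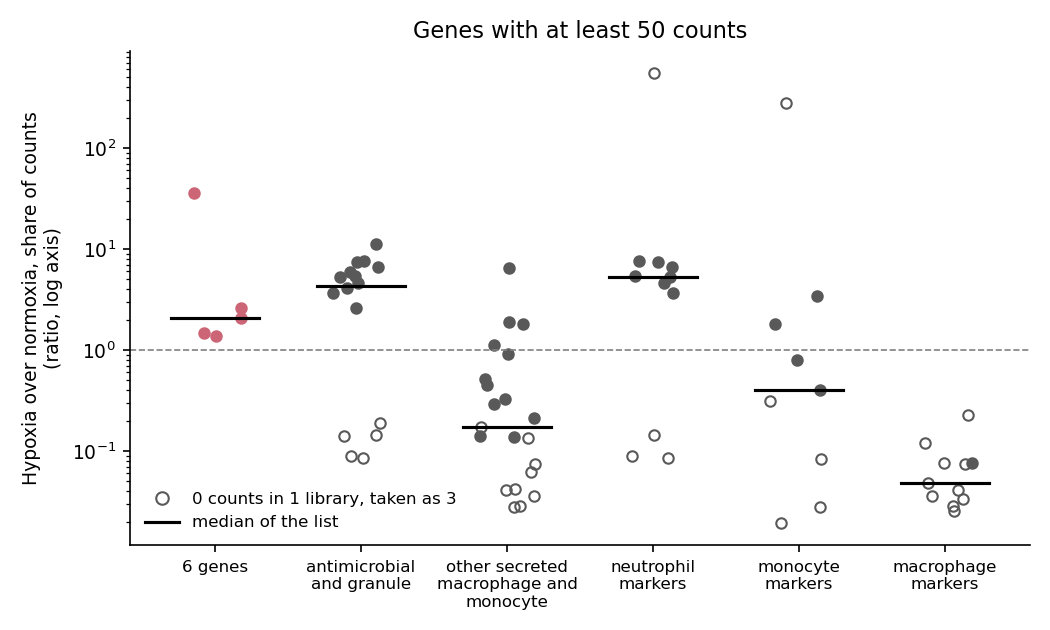
Ratio of the share of counts in hypoxia over normoxia (log axis) for genes with at least 50 counts, 1 point per gene, in the 5 members and 5 gene lists, some of which share genes. Lines are medians and open points have 0 counts in 1 library, taken as 3. On total counts the members lie above 1 (Lyz2 and Plac8 below it with TMM and the median of ratios) and the antimicrobial and neutrophil lists mostly above 2. All 11 macrophage markers lie below 0.5, 10 of them with 0 counts in hypoxia, and the interval of each by estimated molecules includes 1. Of all genes with at least 50 counts, 16.1% were at least 2-fold higher and 67.0% at least 2-fold lower.

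The genes nearest to each member in level were found by distance in log2 CPM over the 2 libraries, among 4214 other genes. For Chil3 these included the ribosomal protein gene Rps3 and the actin-binding thymosin gene Tmsb10, at distances of 0.19 and 0.23. For Plac8 they were Rps2, Hmgb2 and Rpsa, with Rps2 at 2784 and 282 counts, a distance of 0.042. For Anxa1 they were Rpl28, Rpl30 and Cd47, the first at a distance of 0.20. For Ear2 they were Mpst (44 and 102 counts, a distance of 0.21), Ech1 and Setd7. Lyz2 had 1 close neighbour, the non-coding gene Gm42418, with 30389 and 3325 counts at a distance of 0.18, and then the globin genes Hba-a1 and Hbb-bs at 1.33 and 1.54. With 2 libraries such likeness says only that levels were close in both.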

How the data were processed

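RNA-seq of 2 libraries, 1 per group, was analysed. The authors deposited raw counts (whole numbers, not normalized) and TPM for the same genes. STAR 2.5.2b, featureCounts (Subread 1.5.2) and bcl2fastq 2.20 are named in the submitters' processing notes. The sources used here give no build, annotation, strand setting, read length or duplicate removal. Per the labels' protocols the kit was NEBNext Ultra II, with no mention of molecular identifiers, so reads are not independent molecules. TPM per count in hypoxia over normoxia was 11.49 for all 559 genes checked, so the deposited TPM serves as a scaling and for levels between genes.

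Shares of total counts were given with exact Clopper-Pearson 95% intervals, and their ratios with exact conditional binomial intervals (scipy 1.17.1). The ratio intervals were checked on simulated data with independent reads. That check does not show their coverage where several reads stem from 1 molecule. Intervals on molecules divide counts by the estimated reads per molecule first. By rule, a gene with less than 1 molecule in normoxia was given no upper limit on its ratio. With less than 1 molecule in hypoxia the lower limit was set to 0. For ratios to Lyz2 the molecules were rounded to whole numbers. A count of 0 was taken as 3 counts in ratios. Called means at least 2-fold with at least 50 counts over both libraries. TMM came from edgeR 4.0.16 and the median of ratios from DESeq2 1.42.0, with no test run. Of 49315 gene identifiers 48970 were found in GENCODE M21 (GRCm38), and all 6 members were. The authors' build may differ. Promoters came from RefSeq (GRCm38.p6), and alignments used Biopython 1.88. The named genes were the members, members of their families with counts, the leading and most changed genes of each list, and the 3 nearest genes in log2 CPM (prior count 0.5). Hp, Cst3, Cx3cr1, Csf3r, Ccl6 and further marker genes were named after their values were seen. The ratio to Lyz2 and the comparison with genes counted in both libraries were added after the data were seen. Members, lists and the molecule estimate were chosen with earlier results of these data known.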

Additional observations from a re-analysis of the deposited data

How the results depend on the processing

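All ratios are hypoxia over normoxia, and total counts gave 1.39 for Lyz2, 2.06 for Chil3, 35.9 for Ear2, 2.63 for Anxa1, 1.46 for Plac8 and 1.54 for the 6 genes summed. Ratios turned below 1 for Lyz2 (0.797 with TMM, 0.828 with the median of ratios), Plac8 (0.835 and 0.867) and the sum (0.880 and 0.914), since these scalings move every log2 ratio by −0.80 and −0.75. The same scalings gave 1.18 and 1.22 for Chil3, 1.51 and 1.57 for Anxa1, and 20.5 and 21.3 for Ear2. With the deposited TPM the ratios were 1.07 for Lyz2, 1.58 for Chil3, 2.02 for Anxa1, 1.12 for Plac8 and 1.18 for the sum. With the housekeeping list they were 1.51 for Lyz2 and 1.67 for the sum. Without Lyz2 the sum's ratio was 2.17. The number of members at least 2-fold higher was 3 (background 16.1%). It was 2 with the deposited TPM (background 14.1%) or a minimum of 200 counts. It was 1 with TMM (background 11.9%), with the median of ratios (background 12.1%) or at 4-fold. The number at least 2-fold lower was 0 under every scaling, fold and minimum count tried. The background for lower genes ran from 65.7% to 75.6% over the 6 scalings. Backgrounds at another fold or minimum count were not computed. Leaving globins out of the total or leaving out any member but Lyz2 moved no ratio beyond its counting interval by reads. No paired analysis was possible because each group has 1 library. Few estimated molecules limit Ear2, Anxa1, Plac8 and Chil3, whose intervals by molecules include 1. For the members and their sum these intervals were computed with total counts only, so none is given for the ratios below 1.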
